A study of Rattus norvegicus with 16 samples.

Results

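The genes described are 10 members of the extracellular matrix and its enzymes: the proteoglycan genes Dcn, Bgn, Lum and Vcan, the hyaluronan synthase genes Has1 and Has2, the hyaluronan receptor gene Cd44 and the lysyl oxidase genes Lox, Loxl1 and Loxl2. They were chosen by symbol, and all 10 were found among the 32623 genes of the count table. RNA was sequenced from NRK-52E, an epithelial line from normal rat kidney, and from NRK-49F, kidney fibroblasts of the same species grown as a line. The study describes NRK-52E as derived from the proximal tubule. The lines shared medium, NRK-52E on filter inserts and NRK-49F in the wells underneath. They were kept for 24 h without serum and then for 48 h at a medium pH of 7.4 or 6.0 (written 7 and 6 in the labels), and each line was then harvested on its own. The 4 groups are NRK-52E at pH 7.4 (libraries N1, N2, N5 and N6), NRK-52E at pH 6.0 (N3, N4, N7 and N8), NRK-49F at pH 7.4 (N9, N10, N13 and N14) and NRK-49F at pH 6.0 (N11, N12, N15 and N16). All 16 libraries come from co-culture and each line is an established line, so neither cells grown alone nor primary kidney cells are represented. Fragments counted on genes ran from 17760185 to 20612657 in NRK-52E at pH 7.4, from 16844811 to 23856187 in NRK-52E at pH 6.0, from 17518187 to 27607214 in NRK-49F at pH 7.4 and from 16201084 to 34784862 in NRK-49F at pH 6.0.

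Small leucine-rich proteoglycans such as decorin, biglycan and lumican bind collagen fibrils and growth factors, and versican is a large chondroitin sulfate proteoglycan that binds hyaluronan. Hyaluronan is a long unsulfated sugar chain extruded through the plasma membrane by its synthases and bound at the cell surface by CD44. Lysyl oxidases oxidise lysine side chains of collagen and elastin, which starts the cross-linking of the fibres, and in the kidney these matrix genes are best known from fibrosis.

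Levels are given as FPM, the fragments of a gene relative to the library total scaled by TMM over the 16 libraries (cpm of edgeR). They are not divided by transcript length, so they compare groups for a gene and not genes with each other. A gene is called changed where edgeR and DESeq2 both give a false discovery rate below 0.01 with the same sign. The library names carry a further number of unknown meaning, 21 for N1 to N4 and 22 for N5 to N8 in NRK-52E, and 20 for N9 to N12 and 21 for N13 to N16 in NRK-49F. Of these, 21 alone occurs in both lines, and a comparison of the lines with the number as a term takes it to mean the same in both. That comparison rests on N1 and N2 against N13 and N14 at pH 7.4, and on N3 and N4 against N15 and N16 at pH 6.0. Fewer cells that express a gene and less RNA per cell cannot be told apart in such libraries.

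The line labels were checked against cell type markers. Pdgfra, a fibroblast receptor gene, had a mean of 392 FPM in NRK-49F at pH 7.4 and 368 FPM at pH 6.0, against 0.287 and 0.0561 FPM in NRK-52E, and Prrx1, a mesenchymal transcription factor gene, had 65.0 and 82.2 FPM in NRK-49F against 1 count in all NRK-52E libraries together. Ocln, which encodes a tight junction protein, had 41.2 FPM in NRK-52E at pH 7.4 and 9.67 FPM at pH 6.0, was at 0 counts in NRK-49F at pH 7.4 and had 7 counts in NRK-49F at pH 6.0. Other markers do not mark these lines: Esrp1 and Thy1 were at 0 in every group, Slc34a1 and Hnf4a were at 0 in NRK-52E, and Epcam had at most 2 counts in any group. Cldn1 and Pax8 had 2 and 1 counts in NRK-52E at pH 7.4 against 74 and 60 in NRK-49F, and Col3a1 had 6221 FPM in NRK-52E against 458 FPM in NRK-49F at pH 7.4. Krt8, the most abundant epithelial marker, was higher in NRK-49F at pH 7.4 (848 against 430 FPM) and lower there at pH 6.0 (206 against 315.5 FPM).

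Summed marker levels also moved with pH. The 13 fibroblast markers analysed summed to 7201 to 7644 FPM in NRK-52E at pH 7.4 and 2422 to 3788 FPM at pH 6.0, with Col3a1 the most abundant, and to 16200 to 17810 FPM in NRK-49F at pH 7.4 (Vim the most abundant) and 11450 to 13120 FPM at pH 6.0 (Col1a1 the most abundant). The 14 epithelial markers, led by Krt8 in every group, summed to 470 to 542 FPM and 311 to 377 FPM in NRK-52E and to 788 to 952 FPM and 202 to 223 FPM in NRK-49F, at pH 7.4 and 6.0 in that order. These sums were lower at pH 6.0 in both lines, with no overlap between the pH groups. The 8 proximal tubule markers summed to 56.3 to 74.9 FPM and 24.9 to 36.4 FPM in NRK-52E, led by Aqp1, and to 142 to 196 FPM and 364 to 560 FPM in NRK-49F, led by Ggt1. The 4 smooth muscle markers summed to 169 to 247 FPM and 112 to 194 FPM in NRK-52E, led by Acta2, and to 8.86 to 10.4 FPM and 12.8 to 16.47 FPM in NRK-49F, led by Myh11. Against the line labels, the proximal tubule sum at both pH values and the epithelial sum at pH 7.4 were higher in NRK-49F. The smooth muscle sum was higher in NRK-52E. At pH 7.4 each difference lay mainly in a single gene, Krt8, Ggt1 (112 against 1.53 FPM in NRK-52E) or Acta2 (2.34 against 195 FPM). Krt7 (36.7 against 0.463 FPM), Cdh1 (1.62 against 0 FPM) and Aqp1 (34.4 against 21.8 FPM) were higher in NRK-52E at pH 7.4. Myh11 (5.49 and 6.18 FPM) and Des (0.983 and 1.07 FPM) were not called different there. At pH 6.0 Des was higher in NRK-52E (31.1 against 2.965 FPM). The 3 endothelial markers analysed, led by Tek with Kdr at 0 in every group, summed to 35.4 to 44.2 FPM at pH 7.4 and 5.75 to 8.04 FPM at pH 6.0 in NRK-52E. They stayed at or below 1.09 FPM in NRK-49F. The 4 leukocyte markers, led by Cd68 with Ptprc and Adgre1 at 0 in every group, summed to 62.5 to 97.1 FPM at pH 7.4 and 224 to 263 FPM at pH 6.0 in NRK-49F. They stayed at or below 3.90 FPM in NRK-52E. The 2 podocyte markers stayed at or below 0.428 FPM in every library. The part of these marker changes in the results on the matrix genes was not tested.

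In NRK-52E, 7 of the 10 genes had enough counts for the test, and at pH 6.0 1 was called higher (Cd44) and 4 were called lower (Dcn, Lox, Loxl1 and Loxl2), where 28.2% of the 13735 genes tested were called higher and 28.5% lower. In NRK-49F, 9 were tested, 1 was called higher (Cd44) and 4 lower (Bgn, Lum, Lox and Loxl1), against 18.4% higher and 19.4% lower among 13339 genes. The median log2 fold change was -0.996 over the 7 tested genes in NRK-52E and -0.41 over the 9 in NRK-49F, with medians of 0.001 and -0.003 over all genes tested. Between the lines at pH 7.4, all 10 were tested, 7 were called higher in NRK-49F and none lower by both tools (Lox was lower by DESeq2 alone), against 33.3% of 14026 genes in each direction. At pH 6.0, 9 were tested, 7 were called higher in NRK-49F and 1 lower (Lox), against 31.3% and 28.6% of 13796 genes. A test of the interaction called 3 of the 10 genes, more positive in NRK-52E for Cd44 and more negative for Dcn and Loxl1, against 19.3% and 17.5% of 14679 genes. Dcn was too low for the pH test in NRK-49F and lost this call in 13 of 16 fits with a library left out, so no difference is concluded for it. Lum, Vcan and Has2 each had 3 counts at pH 7.4 and 0 at pH 6.0 in NRK-52E, which gives no pH effect there to compare. Of all interaction calls, 52.4% were in the positive direction, and 37.8% with scaling by library totals. That scaling gave 2901 genes called higher and 4233 lower at pH 6.0 in NRK-52E (3877 and 3916 with TMM), and 3330 higher and 4943 lower in NRK-49F between the lines at pH 7.4 (4670 and 4668 with TMM).

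**Figure D1:**
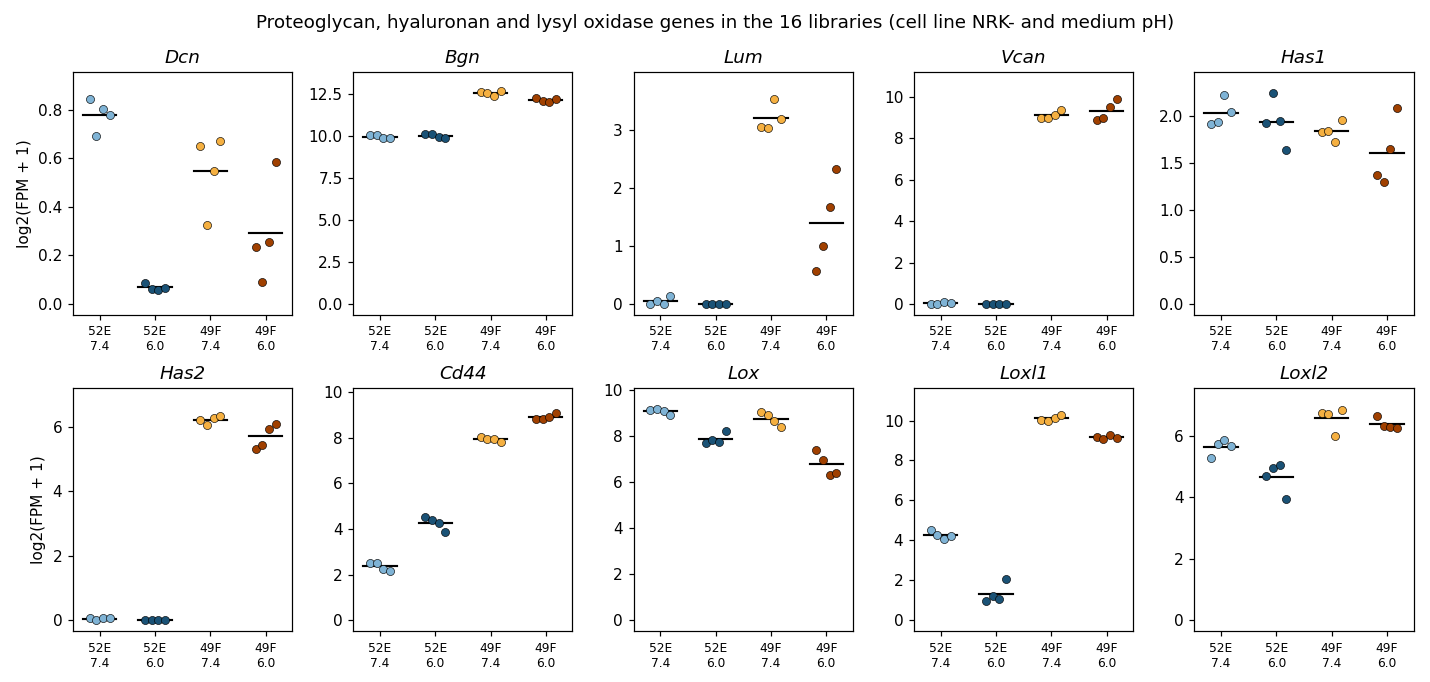
Level of each gene in each of the 16 libraries as log2(FPM + 1), with 1 panel per gene, 4 points per group of cell line and medium pH, and a bar at the group mean; the vertical scales differ between panels. Cd44 stood higher and Lox and Loxl1 lower at pH 6.0 in both lines, and the NRK-52E points of Vcan and Has2 lie at or near 0.

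Dcn encodes decorin, lies on chromosome 7 (ENSRNOG00000004554) and had few counts. In NRK-52E at pH 7.4 it had 17, 15, 18 and 15 counts in N1, N2, N5 and N6 (0.718 ± 0.0768 FPM, SD, n = 4), and at pH 6.0 it had 1 count in each of N3, N4, N7 and N8 (0.0485 ± 0.00879 FPM, SD, n = 4). In NRK-49F the counts were 10, 5, 7 and 15 in N9, N10, N13 and N14 and 4, 1, 6 and 16 in N11, N12, N15 and N16. The pH groups of NRK-52E were apart, while those of NRK-49F overlapped, since N16 at 0.501 FPM stood above N10 at 0.253 FPM and N13 at 0.461 FPM. Dcn fell by 3.78 on the log2 scale in NRK-52E (SE 0.417, adjusted p = 1.6e-05 by edgeR), and the pooled counts of 65 and 4 give a ratio of 15.1 with a 95% counting interval of 5.61 to 57.0 (exact, counting error only). This call was lost within number 21 (-3.66) and within number 22 (-3.92), in fits of 2 libraries against 2, where the fall was about as large. Dcn was too low for the test in NRK-49F and between the lines at pH 6.0, and the lines at pH 7.4 did not differ by the call rule (log2 difference -0.68, SE 0.316, edgeR adjusted p = 0.071). At pH 6.0 the pooled counts of 27 in NRK-49F and 4 in NRK-52E give a ratio of 5.665 (95% counting interval 1.97 to 22.3). Of the 27 counts, 16 were in N16. In FPM the lines did not overlap at either pH, with NRK-52E higher at pH 7.4 and NRK-49F higher at pH 6.0, but the gaps were narrow. At pH 7.4 N2 had 0.6145 FPM against 0.593 FPM in N14. At pH 6.0 N12 had 0.0663 FPM and N3 had 0.0612 FPM, on 1 count each, so that gap reflects library size. No difference between the lines is concluded from these gaps. The interaction was called at -2.91 (SE 0.757, adjusted p = 0.0038 by edgeR and 0.0091 by DESeq2). It lost the call when any of 13 libraries was left out (all but N11, N12 and N14), with -2.23 without N16 as the smallest difference, and also with no filter (-2.88) and with the number in the library names as a term (-2.82). With NRK-49F too low for its own test, no difference between the pH effects is concluded for Dcn.

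Bgn, which encodes biglycan, lies on chromosome X (ENSRNOG00000055962). Its level in NRK-52E was 1048, 1035, 937 and 927 FPM in N1, N2, N5 and N6 at pH 7.4 and 1104, 1098, 954 and 925 FPM in N3, N4, N7 and N8 at pH 6.0. In NRK-49F it was 6135, 5907, 5127 and 6315 FPM in N9, N10, N13 and N14 at pH 7.4 and 4742, 4330, 4142 and 4641 FPM in N11, N12, N15 and N16 at pH 6.0. Every NRK-49F library stood above every NRK-52E library, and the pH groups were apart in NRK-49F and overlapped in NRK-52E. Bgn fell by 0.41 in NRK-49F (SE 0.105, edgeR adjusted p = 0.0060), and this call was lost without N9, N10, N12, N14 or N15 (log2 fold changes from -0.40 to -0.36), with library totals, with no filter and within number 21 (-0.40). In NRK-52E the log2 fold change was 0.03 (SE 0.0953, edgeR adjusted p = 0.80), and its sign turned with library totals. The level was higher in NRK-49F by 2.49 at pH 7.4 (SE 0.100, edgeR adjusted p = 9.8e-10) and by 2.15 at pH 6.0 (SE 0.131, edgeR adjusted p = 2.7e-08). The difference between the pH effects was 0.43 (SE 0.148) and did not pass (adjusted p = 0.0225 by edgeR and 0.0034 by DESeq2), so the fall in NRK-49F is not shown to be absent from NRK-52E.

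Lum encodes lumican, a keratan sulfate proteoglycan, and lies on chromosome 7 (ENSRNOG00000004610), as Dcn does. In NRK-52E it had 3 counts over the pH 7.4 libraries and 0 over those at pH 6.0, so no fold is given there. In NRK-49F its level was 7.26, 7.23, 10.53 and 8.07 FPM in N9, N10, N13 and N14 at pH 7.4 and 0.487, 0.995, 2.18 and 4.004 FPM in N11, N12, N15 and N16 at pH 6.0. The pH groups did not overlap, and among the pH 6.0 libraries N15 and N16 stood above N11 and N12. Lum fell by 2.06 in NRK-49F (SE 0.442, edgeR adjusted p = 0.0020), and the call was lost without N13 (log2 fold change -1.92). With a library left out the value ran from -2.71 (without N16) to -1.75 (without N11). Within numbers 20 and 21 the log2 fold change was -3.35 and -1.60. At pH 7.4 the pooled level in NRK-49F was 247 times that in NRK-52E (95% counting interval 84.1 to 1201), and at pH 6.0 it was at least 61.8-fold higher, taking a floor of 3 counts over the NRK-52E group. Of the 3 NRK-52E counts at pH 7.4, 2 were in N6 and 1 in N2, and with a library left out the fitted log2 difference ran from 7.27 (without N5) to 8.61 (without N6).

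Vcan, on chromosome 2 (ENSRNOG00000029212), encodes versican. It had 0, 0, 2 and 1 counts in N1, N2, N5 and N6 and 0 counts in all 4 NRK-52E libraries at pH 6.0. In NRK-49F its level was 508, 499, 548 and 649 FPM in N9, N10, N13 and N14 at pH 7.4 (551 ± 68.7, SD, n = 4) and 474, 506, 718 and 940 FPM in N11, N12, N15 and N16 at pH 6.0 (660 ± 216, SD, n = 4). The lines were apart in every library, and the pH groups of NRK-49F overlapped, with N15 and N16 above all libraries at pH 7.4, N11 below them and N12 among them. The log2 fold change with pH in NRK-49F was 0.24 (SE 0.187, edgeR adjusted p = 0.29), with -0.03 within number 20 and 0.45 within number 21. At pH 7.4 the pooled level in NRK-49F was 16940 times that in NRK-52E (95% counting interval 5795 to 82120), and at pH 6.0 it was at least 19720-fold higher against the floor of 3 counts over the group. The fitted log2 difference at pH 7.4 ran from 13.31 (without N2) to 14.61 (without N5) with a library left out. With the number as a term the NRK-52E side is N1 and N2, both at 0 counts, and no ratio is given.

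Has1 and Has2 encode hyaluronan synthases, and Cd44 encodes the main surface receptor for hyaluronan. Has1, on chromosome 1 (ENSRNOG00000010994), lay between 1.46 FPM in N12 and 3.73 FPM in N4, with group means of 3.11 ± 0.423, 2.88 ± 0.662, 2.59 ± 0.238 and 2.11 ± 0.816 FPM (SD, n = 4 each) in NRK-52E at pH 7.4 and 6.0 and NRK-49F at pH 7.4 and 6.0. Neighbouring groups in that order overlapped. Has1 was not called in any of the 5 comparisons, with log2 fold changes of -0.13 (SE 0.219) and -0.29 (SE 0.275) for pH in NRK-52E and NRK-49F and edgeR adjusted p-values of 0.61 and 0.40. Between the lines the values were -0.34 (SE 0.182) at pH 7.4 and -0.41 (SE 0.310) at pH 6.0, and the interaction was 0.14 (SE 0.355), which turned negative with library totals.

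Has2, on chromosome 7 (ENSRNOG00000004854), had 1, 0, 1 and 1 counts in N1, N2, N5 and N6 and 0 counts in the 4 NRK-52E libraries at pH 6.0. In NRK-49F its level was 73.1, 66.3, 76.1 and 80.9 FPM in N9, N10, N13 and N14 at pH 7.4 and 38.9, 42.8, 60.8 and 67.7 FPM in N11, N12, N15 and N16 at pH 6.0. N16 was the library that reached into the pH 7.4 range, above N10, and the other pH 6.0 libraries lay below it. The log2 fold change of -0.51 (SE 0.155) passed in DESeq2 (adjusted p = 0.0068) and not in edgeR (adjusted p = 0.015), so Has2 was not called. It was called without N16 (-0.65), with no filter, with the number in the library names as a term (-0.54) and within number 20 (-0.77), and not within number 21 (-0.31). At pH 7.4 the pooled level of Has2 in NRK-49F was 2257 times that in NRK-52E (95% counting interval 772 to 10950), and it was at least 1555-fold higher at pH 6.0 against the floor.

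Cd44, on chromosome 3 (ENSRNOG00000006094), was the member called higher at pH 6.0 in both lines. In NRK-52E its level was 4.78, 4.67, 3.81 and 3.43 FPM in N1, N2, N5 and N6 at pH 7.4 and 21.96, 20.2, 18.2 and 13.8 FPM in N3, N4, N7 and N8 at pH 6.0. In NRK-49F it was 259, 249, 244 and 224 FPM in N9, N10, N13 and N14 at pH 7.4 and 455, 457, 481 and 541 FPM in N11, N12, N15 and N16 at pH 6.0. No library of any group reached into another group, and the order of the groups was NRK-49F at pH 6.0, NRK-49F at pH 7.4, NRK-52E at pH 6.0 and NRK-52E at pH 7.4. Cd44 rose by 2.13 in NRK-52E (SE 0.186, edgeR adjusted p = 3.0e-06) and by 0.97 in NRK-49F (SE 0.0934, edgeR adjusted p = 5.5e-06), and the difference of 1.14 between these effects was called (SE 0.184, edgeR adjusted p = 5.6e-05). These 3 calls held in every alternative run. The mean at pH 6.0 was 4.44 times that at pH 7.4 in NRK-52E and 1.98 times in NRK-49F. Between the lines, NRK-49F was higher by 5.78 at pH 7.4 (SE 0.114) and by 4.72 at pH 6.0 (SE 0.160), with edgeR adjusted p-values of 6.0e-12 and 1.7e-10. Counts are per gene, so splice forms of Cd44, which differ in the extracellular part of the receptor, are not told apart.

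Lox, on chromosome 18 (ENSRNOG00000014426), encodes the founding lysyl oxidase. In NRK-52E its level was 550, 582, 534 and 478 FPM in N1, N2, N5 and N6 at pH 7.4 and 205, 225, 215 and 293 FPM in N3, N4, N7 and N8 at pH 6.0. In NRK-49F it was 522, 485, 400 and 336 FPM in N9, N10, N13 and N14 at pH 7.4 and 166, 125, 78.7 and 83.9 FPM in N11, N12, N15 and N16 at pH 6.0. All pH 6.0 libraries lay below all pH 7.4 libraries of either line, and within NRK-49F the libraries numbered 20 stood above those numbered 21 at each pH. Lox fell in both lines, with log2 fold changes of -1.21 in NRK-52E (SE 0.129, edgeR adjusted p = 1.2e-05) and -1.95 in NRK-49F (SE 0.232, edgeR adjusted p = 2.7e-05), and -1.79 and -2.20 within numbers 20 and 21. Within NRK-52E the values were -1.44 for number 21 and -1.01 for number 22, where the call was lost. The difference between the pH effects was 0.73 (SE 0.279, edgeR adjusted p = 0.036) and was not called, but was called without N11 (0.98) and with the number as a term (0.77). At pH 7.4 the lines overlapped (log2 difference -0.38, SE 0.129, edgeR adjusted p = 0.018), and the difference was called without N9 (-0.47), with library totals (-0.69) and with the number as a term (-0.69). At pH 6.0 Lox was lower in NRK-49F, with a log2 difference of -1.03 (SE 0.222, edgeR adjusted p = 0.0012).

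Loxl1 encodes a lysyl oxidase known for its part in elastic fibres and lies on chromosome 8 (ENSRNOG00000008680). In NRK-52E its level was 21.9, 18.6, 15.8 and 17.4 FPM in N1, N2, N5 and N6 at pH 7.4 and 0.979, 1.35, 1.11 and 3.20 FPM in N3, N4, N7 and N8 at pH 6.0. In NRK-49F it was 1037, 1003, 1119 and 1256 FPM in N9, N10, N13 and N14 at pH 7.4 and 581, 543, 624 and 550 FPM in N11, N12, N15 and N16 at pH 6.0. The 4 groups did not overlap, and N8 stood above the other NRK-52E libraries at pH 6.0. Loxl1 fell by 3.48 in NRK-52E (SE 0.338, edgeR adjusted p = 6.3e-06) and by 0.96 in NRK-49F (SE 0.100, edgeR adjusted p = 1.0e-05). The difference of -2.53 between these effects was called (SE 0.296, edgeR adjusted p = 1.9e-06), as was each difference between the lines, which was 5.82 at pH 7.4 (SE 0.130) and 8.44 at pH 6.0 (SE 0.313), with NRK-49F higher and edgeR adjusted p-values of 1.3e-11 and 3.6e-10.

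Loxl2, on chromosome 15 (ENSRNOG00000016758), encodes a lysyl oxidase that acts on collagen of basement membranes among other substrates. In NRK-52E its level was 37.8, 51.5, 57.5 and 49.3 FPM in N1, N2, N5 and N6 at pH 7.4 and 24.7, 29.6, 31.6 and 14.3 FPM in N3, N4, N7 and N8 at pH 6.0. In NRK-49F it was 106, 103, 61.8 and 113 FPM in N9, N10, N13 and N14 at pH 7.4 and 98.8, 77.8, 77.4 and 74.9 FPM in N11, N12, N15 and N16 at pH 6.0. The pH groups were apart in NRK-52E and overlapped in NRK-49F, where N13 was the lowest library of the line. Loxl2 fell in NRK-52E (log2 fold change -0.996, SE 0.220, edgeR adjusted p = 0.0021), while the value of -0.24 in NRK-49F did not pass (SE 0.165, edgeR adjusted p = 0.24). The difference between these effects, -0.76 (SE 0.297, edgeR adjusted p = 0.040), was not called. NRK-49F was higher by 0.89 at pH 7.4 (SE 0.182, edgeR adjusted p = 0.00089) and by 1.73 at pH 6.0 (SE 0.212, edgeR adjusted p = 1.3e-05), and the call at pH 7.4 was lost with library totals (0.59) and with the number as a term (0.90).

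**Figure D2:**
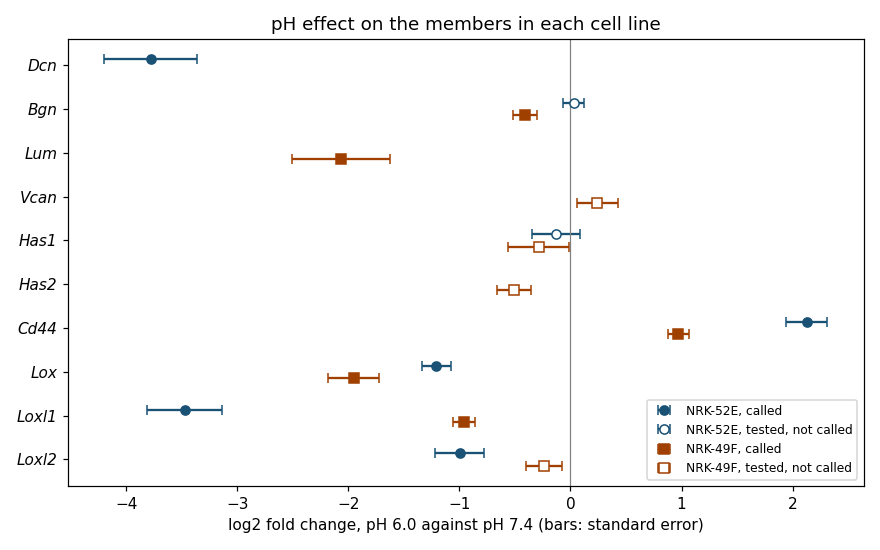
Log2 fold change of each tested gene at pH 6.0 against pH 7.4 in NRK-52E (circles) and NRK-49F (squares), with the standard error as a bar; filled symbols passed the call rule in edgeR and DESeq2, and open symbols did not. Cd44 lies to the right of 0 in both lines (2.13 and 0.97), and Lox (-1.21 and -1.95) and Loxl1 (-3.48 and -0.96) lie to the left.

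Other genes of the same pathways were read from 7 lists with 117 symbols, of which 111 were analysed. In NRK-52E, 84 were tested, 12 were called higher and 54 lower at pH 6.0 (14.3% and 64.3%, against 28.2% and 28.5% of all genes tested), with a median log2 fold change of -0.89 against 0.001 over all genes. In NRK-49F, 88 were tested, 18 were called higher and 26 lower (20.5% and 29.5%, against 18.4% and 19.4%), with a median of -0.08 against -0.003. The difference between the pH effects was called positive for 12 and negative for 39 of 94 genes tested (12.8% and 41.5%, against 19.3% and 17.5% of all genes, a balance that moves with the scaling as given above). Positive calls included Papss2 (4.35, SE 0.636, edgeR adjusted p = 2.2e-05), Hapln3 (3.02, SE 0.404, edgeR adjusted p = 8.5e-06) and Ogn (2.37, SE 0.432, edgeR adjusted p = 0.00020). The value of Papss2 rests on 9 counts in NRK-52E at pH 7.4. Gpc3 (4.75) was called positive on 6 and 0 counts in NRK-49F at pH 7.4 and 6.0. Negative calls included Xylt1 (-4.20, SE 0.725, edgeR adjusted p = 0.00012), on 48 counts in NRK-52E at pH 6.0 and 60 in NRK-49F at pH 7.4. Fmod (-3.54, SE 0.651, edgeR adjusted p = 0.00022) was called negative on 30 and 17 counts in NRK-49F at pH 7.4 and 6.0. Hapln1 (-4.59) and Adamts15 (-4.11) were called negative with 3 counts each in NRK-52E at pH 6.0. Fmod and Gpc3 were too low for the pH test in NRK-49F, and Adamts15 in both lines. No difference between the pH effects is concluded for these genes.

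Among 6 other small leucine-rich proteoglycan genes tested in NRK-52E, 1 was called higher and 4 lower (median -2.40), and among 5 in NRK-49F, 1 higher and 4 lower (median -3.39). Tsku was the gene that rose, by 1.33 in NRK-52E (SE 0.102, edgeR adjusted p = 1.2e-06) and by 0.55 in NRK-49F (SE 0.0855, edgeR adjusted p = 0.00021). Omd, which encodes osteomodulin, fell most in both lines, and its NRK-52E means at pH 7.4 and 6.0 were 11.3 ± 0.999 and 0.316 ± 0.280 FPM, those of NRK-49F 6.07 ± 0.863 and 0.101 ± 0.106 FPM (SD, n = 4 each). Its log2 fold changes were -5.09 (SE 0.447, edgeR adjusted p = 3.1e-06) and -5.75 (SE 0.472, edgeR adjusted p = 1.7e-06). Between the lines at pH 7.4, Aspn, the asporin gene, was higher in NRK-49F by 7.32 (88.5 against 0.508 FPM), and Fmod, the fibromodulin gene, was higher in NRK-52E (317 against 0.401 FPM, log2 difference -9.74). At pH 6.0 Aspn had 2 counts in NRK-52E and a pooled ratio of 275 (95% counting interval 75.8 to 2274), and Ogn was lower in NRK-49F by a log2 difference of -6.53 (0.195 against 21.3 FPM).

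Of the other lecticans and link proteins, which tie proteoglycans to hyaluronan, 2 were tested in NRK-52E (1 called higher, 1 lower) and 3 in NRK-49F (1 higher, 1 lower). Hapln3 rose by 5.55 in NRK-52E, from 0.410 to 19.6 FPM (SE 0.338, edgeR adjusted p = 3.3e-07), and by 2.518 in NRK-49F, from 2.13 to 12.4 FPM (SE 0.211, edgeR adjusted p = 1.9e-06). Hapln1 fell in both lines. In NRK-52E its counts went from 239 to 3 over the groups, a ratio of 73.9 (95% counting interval 25.0 to 361), and in NRK-49F it fell by 1.43 (SE 0.339, edgeR adjusted p = 0.0037). All 3 counts of Hapln1 in NRK-52E at pH 6.0 lay in a single library (0.141 FPM), so the ratio depends on that library. The pooled level of Hapln4 in NRK-49F at pH 7.4 was 2270 times that in NRK-52E (95% counting interval 777 to 11010), and it was higher by 9.40 at pH 6.0. Hapln3 was lower in NRK-49F at pH 6.0 by a log2 difference of -0.65 (SE 0.195). This call lay at the edge of the rule (edgeR adjusted p = 0.00999). The NRK-52E libraries at pH 7.4 ran from 0 to 0.0952 FPM for Hapln4 on 3 counts, so its pooled ratio depends on single libraries.

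Of the genes of hyaluronan turnover and its receptors, 7 were tested in NRK-52E (2 called higher, 3 lower, median -0.47) and 8 in NRK-49F (4 higher, 1 lower, median 0.34). Hyal1, a lysosomal hyaluronidase gene, rose by 1.45 in NRK-52E (SE 0.319, edgeR adjusted p = 0.0020) and by 1.31 in NRK-49F (SE 0.319, edgeR adjusted p = 0.0045). Cemip2, a gene for a cell surface protein linked to hyaluronan breakdown, fell by 1.18 in NRK-52E, from 30.1 to 13.47 FPM, and it stood at 25.2 and 42.8 FPM in NRK-49F, a called rise of 0.75. The interaction of -1.94 was called (SE 0.177, edgeR adjusted p = 1.1e-07). Tnfaip6, which encodes a hyaluronan-binding protein, fell by 2.89 in NRK-49F, from 15.3 to 2.06 FPM (SE 0.236, edgeR adjusted p = 1.6e-06). It was higher in NRK-49F than in NRK-52E, by 7.88 at pH 7.4 and with a pooled ratio of 58.7 at pH 6.0 (95% counting interval 19.8 to 287). The NRK-52E libraries at pH 6.0 ran from 0 to 0.122 FPM for Tnfaip6 on 3 counts, so this ratio depends on single libraries. Has3, another hyaluronan synthase gene, was lower in NRK-49F at pH 7.4 (1.20 against 2.78 FPM, log2 difference -1.30), and Hmmr was lower there at pH 6.0 (17.8 against 45.6 FPM, log2 difference -1.34).

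Of the lysyl oxidase relatives and partners, 12 were tested in each line, none was called higher by both tools, and 9 were called lower in NRK-52E (median -1.67) and 5 in NRK-49F (median -0.61). The largest called falls were those of Tll2 in NRK-52E, with -3.99 (SE 0.550, edgeR adjusted p = 8.2e-05), and Efemp2 in NRK-49F, with -1.10 (SE 0.0979, edgeR adjusted p = 3.0e-06). The NRK-52E libraries at pH 6.0 ran from 0.04099 to 0.4495 FPM for Tll2 on 13 counts, so the size of its fall depends on single libraries. Fbln5, which encodes the elastic fibre protein fibulin-5, had the most negative called interaction of the list, -3.40 (SE 0.329, edgeR adjusted p = 2.2e-07), with 237 and 22.4 FPM in NRK-52E at pH 7.4 and 6.0 and 391 and 386 FPM in NRK-49F. Fn1 was higher in NRK-49F at pH 7.4 (10760 against 81.2 FPM, log2 difference 6.97) and Fbn1 at pH 6.0 (178 against 0.264 FPM, log2 difference 9.35), while Eln, the elastin gene, was higher in NRK-52E at both pH values (1258 against 1.30 FPM and 422 against 0.587 FPM, log2 differences -9.93 and -9.37).

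Of the heparan sulfate and other proteoglycan genes, 14 were tested in each line, with 2 called higher and 9 lower in NRK-52E (median -0.85) and 5 and 5 in NRK-49F (median -0.01). Sdc1, the syndecan-1 gene, rose by 1.02 and Cspg4 fell by 3.41 in NRK-52E, and Agrn, the agrin gene, rose by 1.09 and Prg4 fell by 1.98 in NRK-49F, with edgeR adjusted p-values of 2.6e-06, 1.2e-06, 2.7e-05 and 0.0069. In NRK-52E Agrn fell from 2084 to 526 FPM (log2 fold change -2.01, SE 0.112, edgeR adjusted p = 2.1e-07), and its interaction of -3.11 was called (SE 0.188, edgeR adjusted p = 1.2e-09). At pH 7.4 Gpc1 was higher in NRK-49F by 4.99 and Gpc3 lower, with a log2 difference of -7.35. At pH 6.0 Srgn was higher in NRK-49F by 6.11, and Gpc3 was at 0 counts in NRK-49F and at least 798-fold higher in NRK-52E against the floor.

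Of the genes of glycosaminoglycan chain synthesis, 31 were tested in NRK-52E (4 called higher, 19 lower, median -0.74) and 32 in NRK-49F (3 higher, 8 lower, median -0.05). Papss2 rose by 3.61 and Csgalnact1, a starter enzyme gene of chondroitin sulfate, fell by 3.39 in NRK-52E, and Chpf2 rose by 1.31 and Ext1, a heparan sulfate polymerase gene, fell by 1.97 in NRK-49F, with edgeR adjusted p-values of 0.00032, 8.3e-07, 1.8e-05 and 1.0e-07. The NRK-52E libraries at pH 7.4 ran from 0 to 0.207 FPM for Papss2 on 9 counts. The size of its rise thus depends on single libraries. Hs6st2 was at 0 counts in NRK-52E and at least 279-fold and 282-fold higher in NRK-49F at pH 7.4 and 6.0, and Slc26a2 was lower in NRK-49F, with log2 differences of -2.97 and -2.82. The breakdown list mixes enzymes that degrade glycosaminoglycan chains with Adamts genes, which encode proteases that cleave proteoglycan core proteins. Of its genes, 12 were tested in NRK-52E (2 called higher, 9 lower, median -1.16) and 14 in NRK-49F (4 higher, 2 lower, median 0.22). Adamts1 fell (-1.95) in NRK-52E, and Naglu rose by 1.15 and Adamts5 fell by 2.87 in NRK-49F, with edgeR adjusted p-values of 4.6e-07, 4.6e-06 and 0.0080. The NRK-49F libraries at pH 6.0 ran from 0 to 0.620 FPM for Adamts5 on 16 counts, so the size of its fall depends on single libraries. Adamts9 was at 0 counts in NRK-52E and at least 3469-fold and 511-fold higher in NRK-49F at pH 7.4 and 6.0, while Idua was lower in NRK-49F at pH 7.4 (log2 difference -0.87).

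For the 9 members with a mean of at least 1 FPM, the genes most alike over the 16 libraries were taken by Pearson's r of log2(FPM + 1) among 11448 genes. The libraries fall into 4 groups, so r mostly reflects the group means, and it is given as a description. Bgn was most like Zcchc24, Ccdc8 and Gpc1 (r of 0.998, 0.997 and 0.997), and Lum was most like Slurp1, Ubd and Chrm3 (0.995, 0.991 and 0.990). Vcan was most like Ptgr1, Tox and Egln3 (r of 0.999 each), Has2 like Cd48, Nid1 and Mmp3 (r above 0.998 each), and Has1 like Arel1, Apbb3 and Rbm12 (0.893, 0.881 and 0.835). Has1 had the lowest r of these members. Cd44 was most like Dysf, Ddr2 and Plcd4 (r of 0.997, 0.995 and 0.994), of which Ddr2 encodes a collagen receptor. Lox was most like Flrt3, Ccn2 and Akap12 (0.971, 0.966 and 0.964), and Ccn2, which encodes connective tissue growth factor, had group means of 1477, 504, 1314 and 71.4 FPM in NRK-52E at pH 7.4 and 6.0 and NRK-49F at pH 7.4 and 6.0. Loxl1 was most like Ephb6, Lgals3bp and Medag (0.998, 0.998 and 0.997), and Loxl2 was most like an entry named Itprip.1, Snapc4 and Stat3 (0.970, 0.968 and 0.966).

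Promoter sequences of RefSeq on build GRCr8 were matched by symbol for 5 of the 10 members (Lum, Vcan, Has1, Cd44 and Loxl1) and not for Dcn, Bgn, Has2, Lox and Loxl2. The 250 bases before the annotated start are shown for Cd44 and Loxl1, because these were called in both lines with opposite directions. The start used in these cells was not measured. Both strands were searched for the TATA box (TATAAA), the hypoxia response core (ACGTG), the AP-1 site (TGACTCA) and the antioxidant response core (TGACNNNGC), which 12.9%, 16.6%, 4.05% and 10.1% of 33469 promoter windows of this length hold. The Cd44 window at chr3:109699425-109699674 (minus strand) held 1 antioxidant response core, as its reverse complement GCTTAGTCA, beginning 108 bases before the start and shown in capitals. The Loxl1 window at chr8:67612225-67612474 (minus strand) held none of the 4 motifs, as did those of Lum, Vcan and Has1. A match or its absence describes these letters and not the binding of a factor.
Cd44: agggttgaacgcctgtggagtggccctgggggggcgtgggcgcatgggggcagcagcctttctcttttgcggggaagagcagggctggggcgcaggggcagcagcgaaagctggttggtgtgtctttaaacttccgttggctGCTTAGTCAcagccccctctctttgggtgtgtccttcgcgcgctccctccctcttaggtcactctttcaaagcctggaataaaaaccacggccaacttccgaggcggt
Loxl1: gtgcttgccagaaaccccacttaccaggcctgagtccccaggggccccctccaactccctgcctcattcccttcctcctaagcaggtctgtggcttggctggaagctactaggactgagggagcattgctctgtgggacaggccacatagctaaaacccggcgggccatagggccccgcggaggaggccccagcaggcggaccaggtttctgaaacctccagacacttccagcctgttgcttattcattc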

How the data were processed

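Poly(A) RNA of 16 co-culture libraries, 4 per cell line and pH, was sequenced as read pairs. Mapping was to rat build rn6, and the authors deposited raw counts of fragments per Ensembl gene, made with featureCounts, which counted fragments with several places at each place, so genes with near-identical copies are uncertain, and the use of strand is not stated. The study's methods name tophat2 as aligner, and the submitters' processing notes name HISAT2 2.1.0. Groups were taken from the sample labels, and no library was left out. The labels do not say that the libraries came from separate cultures, so p-values measure the spread between these samples. Within each group, every pair of libraries differed by more than counting noise, the lowest ratio of chi-square to its degrees of freedom being 6.12. In NRK-52E at pH 6.0, N8 had ratios of 43.7 to 92.2 with N3, N4 and N7, which had 9.11 to 39.4 among themselves. Without N8, 4352 genes were called higher and 4562 lower at pH 6.0 in NRK-52E, against 3877 and 3916 with all libraries.

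FPM came from the deposited counts by way of edgeR 4.0.16 (TMM over 16 libraries). Each comparison was fitted on its own 8 libraries, and the interaction on all 16, with edgeR's quasi-likelihood test after filterByExpr and with DESeq2 1.42.0 (Wald test) in R 4.3.3, with Benjamini-Hochberg adjustment over all genes tested. Calls needed an FDR below 0.01 in both. Log2 fold changes are edgeR's, and SE is their size divided by the root of the F statistic. For groups at 0 counts a floor of 3 counts over the group was used, and for low counts exact 95% intervals that cover counting error only. The code was tested on simulated data.

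The members and lists were chosen with earlier results of these data known. All members are named, with the called gene of largest rise and fall of each pathway list in the pH effects and the comparisons of lines (mean of 1 FPM or more in either group), and the 3 genes most like each member; some results by this rule are not reported here. The pathway lists were other small leucine-rich proteoglycans, other lecticans and link proteins, heparan sulfate and other proteoglycans, hyaluronan turnover and receptors, lysyl oxidase relatives and partners, glycosaminoglycan chain synthesis and glycosaminoglycan breakdown. The last of these also held Adamts protease genes. Named genes and values outside this rule (Fbln5, Cemip2 in NRK-49F, Agrn in NRK-52E and interactions of pathway genes) were added after their values were seen. Results were recomputed with other scaling (size factors of DESeq2, or library totals), with other filters (none, or 4 or more libraries at 1 CPM or above), with a joint fit of the 16 libraries, with edgeR alone and DESeq2 alone, with an FDR below 0.05, with the number in the library names as a term, with each library left out in turn and, added after seeing the data, fits within 1 number. Transcript lengths, proteins and cells grown alone were not analysed here, and Podn, Hspg2, Gpc5, Sgsh, Hgsnat, Col1a2 and Pecam1 were not analysed here, nor was Tmem2 as a symbol, an older name of Cemip2.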

Additional observations from a re-analysis of the deposited data

Results flagged for a closer look

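Single libraries stood apart from their group for 2 of the 34 gene and group combinations with over 3 counts, where chance gives about 1 in 20 (1.70). Loxl1 in NRK-52E at pH 6.0 was 3.20 FPM in N8 against 0.979 to 1.35 FPM in the other 3 libraries, and without N8 the fall of Loxl1 in NRK-52E was -4.02 on the log2 scale in place of -3.48. For Loxl2 in the NRK-49F libraries at pH 6.0, N11 had 98.8 FPM against 74.9 to 77.8 FPM in the others, and Loxl2 was not called in NRK-49F.

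The interaction test called a difference between the pH effects of the lines for 3 genes (NRK-52E minus NRK-49F, log2 scale). The difference was 1.14 for Cd44, which rose in both lines, and -2.53 for Loxl1, which fell in both. For Dcn it was -2.91, on counts of 1 to 18 per library, and this call was lost with no filter, with the number in the library names as a term and in 13 of 16 fits with a library left out. Dcn was too low for the pH test in NRK-49F, so no difference between the lines is concluded for it.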

How the results depend on the processing

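Over 45 log2 fold changes and 861 alternative values, 800 kept their direction and side of the threshold, 31 lost a call, 17 gained one and 13 changed sign, none of these for a called gene; the cause was not tested. The calls in NRK-52E numbered 3 within number 21 and 2 within number 22 (5 in the full fit), fits of 2 libraries against 2, in which Dcn (-3.66 and -3.92) and Loxl2 (-0.76 and -1.25) lost the call in both and Lox in number 22 (-1.01). The interaction calls numbered 6 at an FDR below 0.05. Signs changed for Bgn in NRK-52E with library totals (-0.18), with no filter (-0.00058), within number 22 (-0.0095) and over the libraries left out (-0.023 to 0.072), for Has1 in NRK-52E within number 21 (0.19) and in NRK-49F within number 21 (0.030), for Vcan in NRK-49F within number 20 (-0.034), for the interaction of Lum with DESeq2 alone (0.16) and over the libraries left out (-1.09 to 0.24), and for the interaction of Has1 with library totals (-0.088). Scaling by library totals moved the median of all genes to -0.207 for pH in NRK-52E, -0.335 and -0.120 for the lines at pH 7.4 and 6.0, and -0.248 for the interaction. Dcn was removed by the filter of 4 or more libraries at 1 CPM or above and gives no value there, and Lum, called between the lines at pH 6.0, gives none there with this filter or without N15 or N16, so that 7 members in place of 8 were called. Depth limits Dcn in every group and Lum, Vcan and Has2 in NRK-52E, where 3 counts over a group correspond to 0.0330 FPM at pH 7.4 and 0.0356 FPM at pH 6.0. Single libraries were not paired, since their numbers are not shared between groups, and the number in the library names that the pH groups of a line share was used as a term; between the lines this term rests on number 21 alone.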
